A study of Mus musculus with 6 samples.

Results

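Integrins are the receptors by which cells hold on to the matrix around them. The genes described here are 10 integrin subunit genes of lung fibroblasts, of 55487 genes counted: 7 alpha subunits (Itga1, Itga3, Itga5, Itga7, Itga8, Itga11 and Itgav) and 3 beta subunits (Itgb1, Itgb3 and Itgb5). They were chosen by symbol, from a list drawn up with earlier results of these data known, so their fold changes and p-values are a description and their number called is no evidence about the family. The choice did not follow the level alone: per exon length (RPKM), Itga9, which is not on the list, averaged 3.62 in rmCIRBP, above Itga3 at 2.68. All 10 passed the filter on low counts. All libraries were made from lung fibroblasts in primary culture, taken from C57BL/6 wild-type mice, grown in 10% serum and then held in 0.1% serum for 24 h. In the rmCIRBP group (3 libraries) the cells then had 1 µg/mL of recombinant mouse CIRBP, the cold-inducible RNA-binding protein, for 24 h, and in the PBS group (3 libraries) they had PBS. The labels name no other allele or agent. Nothing in them tells separate animals from repeat wells, so a p-value here speaks for the spread among these 6 libraries, which may be technical.

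An integrin is a pair of 1 alpha and 1 beta subunit, and the pair decides which matrix protein is bound. Itgb1 encodes the shared partner of most alpha subunits: with Itga1 or Itga11 it binds collagens, with Itga3 or Itga7 laminins, and with Itga5 or Itga8 proteins that carry the RGD tripeptide, such as fibronectin and nephronectin. The product of Itgav pairs with Itgb1, Itgb3 or Itgb5, binds vitronectin and fibronectin, and in lung fibroblasts is known for releasing active TGF-beta from its latent complex.

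Depth was 12105584 to 14262375 counts per library. A count of 0 allows up to 3 counts, or 0.205 to 0.249 CPM (counts scaled to a common library size by the trimmed mean of M values), a limit that covers counting error only. The 6 fibroblast markers summed to 15070 to 18716 CPM in rmCIRBP and 17790 to 21268 CPM in PBS, with Col1a1, Col1a2 and Pdgfra the most abundant, and 1 of them (Dcn) was called higher and 1 (Thy1) lower. Lum, singled out after its values were seen, was low for a fibroblast marker, at 0.577 to 2.64 CPM in rmCIRBP and 1.30 to 1.84 CPM in PBS. The summed level of 6 smooth muscle markers was 684, 1925 and 228 CPM in rmCIRBP libraries 1, 2 and 3 and 1255, 578 and 566 CPM in the PBS libraries, with Myh11, Actg2 and Cnn1 the most abundant. The rmCIRBP libraries were thus spread widely in these genes, with rmCIRBP 2 the highest and rmCIRBP 3 the lowest, and PBS 1 lay above the other PBS libraries. The epithelial and platelet lists summed to at most 0.294 and 0.366 CPM in rmCIRBP and 0.273 and 0.498 CPM in PBS, and Myod1, Myog and Myf5 of skeletal muscle had 0 counts.

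Sequence before RefSeq start sites (GRCm38.p6) was at hand for 8 of the 10 genes, with 2 start sites for Itga3. The promoter set used here did not hold Itga7 and Itgb3, which says nothing of whether RefSeq lists them. The 250 bases before the start site are shown for 3 genes whose RNA went different ways: Itga11, which had the largest fall of the 10, Itgb5, which fell and is abundant, and Itgav, the gene called higher. They lie at chr9:62677605-62677854, chr16:33829415-33829664 and chr2:83724147-83724396, all on the plus strand. Capitals mark GC boxes (GGGCGG on either strand).
Itga11: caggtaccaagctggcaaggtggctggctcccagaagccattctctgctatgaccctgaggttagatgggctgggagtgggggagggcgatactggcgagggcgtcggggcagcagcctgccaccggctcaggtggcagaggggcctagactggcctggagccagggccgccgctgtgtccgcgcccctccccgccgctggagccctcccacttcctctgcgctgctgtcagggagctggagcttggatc
Itgb5: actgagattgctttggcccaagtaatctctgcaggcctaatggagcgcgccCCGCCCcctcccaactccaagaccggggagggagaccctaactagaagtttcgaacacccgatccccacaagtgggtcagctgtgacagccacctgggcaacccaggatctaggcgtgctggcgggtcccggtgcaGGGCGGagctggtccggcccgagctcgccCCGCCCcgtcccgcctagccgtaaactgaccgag
Itgav: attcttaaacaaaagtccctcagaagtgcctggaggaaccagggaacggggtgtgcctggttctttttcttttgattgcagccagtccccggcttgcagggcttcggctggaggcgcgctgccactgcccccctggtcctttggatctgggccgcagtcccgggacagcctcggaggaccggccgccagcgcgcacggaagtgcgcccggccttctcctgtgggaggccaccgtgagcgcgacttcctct

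The Itgb5 window holds 3 GC boxes, and the Itga11 and Itgav windows hold none of these letters. Of the 9 member windows, 5 held a GC box, beside 32.7% of 32851 windows of the same length over all genes. TATA boxes (TATAAA), AP-1 motifs (TGANTCA), kB motifs and CArG motifs, searched on both strands, matched in 0 of the 9, and in 12.4%, 6.75%, 7.25% and 1.47% of all windows. GC content had a median of 64.4% in the member windows and 52.4% in all. A match is a description of the letters, and these windows are short.

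Of the 10 genes, 5 fell and 1 rose after rmCIRBP by edgeR's quasi-likelihood test at an adjusted p of 0.05, where 11.5% of the 15801 genes tested were called, 4.77% lower and 6.74% higher. The genes that fell were Itga11, Itga7, Itgb3, Itgb5 and Itga3, and Itgav rose. Itga8 lay lower and Itga5 higher without passing, and Itga1 and Itgb1 did not pass either. For 7 of the 10, 6 lower and 1 higher, no library of either group lay within the other, where 34.6% of all genes tested had groups that did not overlap (17.1% lower, 17.5% higher). The median log2 fold change was -0.60 over the 10 genes and -0.01 over all genes tested. Over all genes the split was 1065 higher and 753 lower, and with upper quartile scaling 925 and 1022 (12.3% called), under which the 10 genes had 6 lower and 0 higher. Without PBS 2 or rmCIRBP 1 the number of the 10 called was 3 or 2, and that of all genes 723 or 742; without PBS 3 these were 4 and 863. In RNA of whole cultures, fewer cells of a type and less RNA per cell cannot be told apart.

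Some markers of other cell types were also lower in rmCIRBP. The 4 endothelial markers summed to 7.19, 4.40 and 5.93 CPM in rmCIRBP and 18.9, 23.6 and 25.9 CPM in PBS, where Kdr and Tek fell and Pecam1 and Cdh5 were at most 0.367 CPM in rmCIRBP and 0.415 CPM in PBS. The 5 pericyte markers summed to 36.8 to 61.9 CPM in rmCIRBP and 67.8 to 110 CPM in PBS. Notch3 made up most of that sum, at 45.1 ± 12.7 CPM in rmCIRBP and 77.2 ± 17.9 CPM in PBS (SD, n = 3 each; edgeR adjusted p = 0.0783), and Cspg4 fell. Rgs5 lay the other way, at 4.18, 2.24 and 2.78 CPM in rmCIRBP and 0.913, 1.30 and 1.43 CPM in PBS, and was not called (edgeR adjusted p = 0.0514). The 3 mesothelial markers summed to 2.63 to 5.51 CPM in rmCIRBP and 8.36 to 13.6 CPM in PBS, with Upk3b called lower, Msln at 3.28 ± 1.74 CPM in rmCIRBP and 5.31 ± 2.00 CPM in PBS (SD, n = 3 each) and not called (edgeR adjusted p = 0.339), and Wt1 at most 0.325 CPM in any library. These sums, like Itga3, Itga7, Itga8, Itga11, Itgb3 and Itgb5, did not overlap between the groups, as 34.6% of all genes tested did not. The 7 leukocyte markers went the other way, also without overlap, summing to 22.7 to 35.3 CPM in rmCIRBP and 18.0 to 21.7 CPM in PBS. The part of these markers in the integrin results was not tested.

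**Figure D1:**
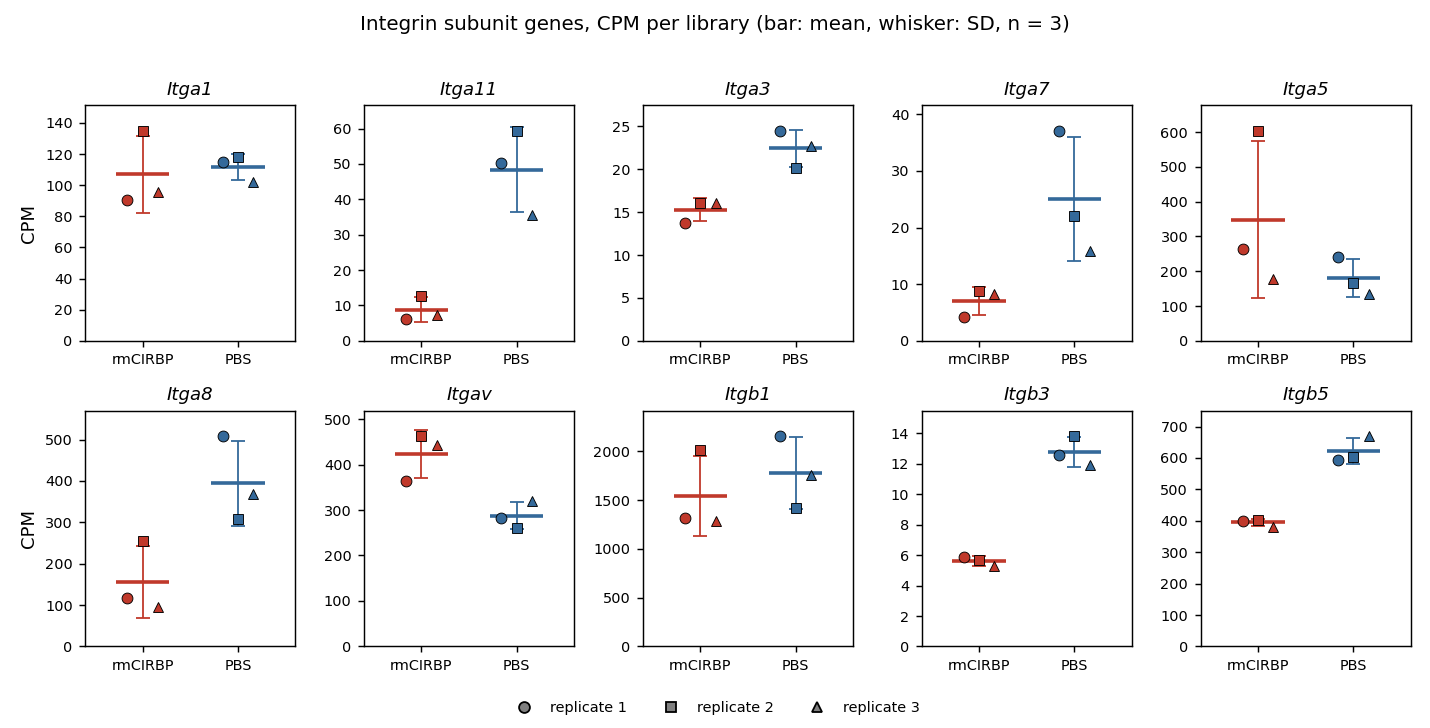
Level of each integrin subunit gene in CPM (vertical axes, from 0) in the rmCIRBP and PBS libraries; symbols mark the replicate, bars the mean and whiskers the SD of 3 libraries. The groups are apart for Itga11, Itga3, Itga7, Itga8, Itgav, Itgb3 and Itgb5, and rmCIRBP 2 is the highest rmCIRBP library for Itga5 at 604 CPM and for Itga8 at 256 CPM.

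Of the collagen receptor subunits among the 10 genes, Itga11 fell and Itga1 was not called. Itga11, the alpha subunit of a fibrillar collagen receptor found on fibroblasts (chromosome 9, 62677826 to 62783982, GRCm38, plus strand, with 30 exons in its longest transcript), was at 6.17, 12.8 and 7.25 CPM in the rmCIRBP libraries and at 50.2, 59.4 and 35.5 CPM in the PBS libraries. Every rmCIRBP library lay below every PBS library, the highest of them at 178 counts against 520 in the lowest PBS library. It averaged 8.75 ± 3.59 CPM in rmCIRBP and 48.4 ± 12.0 CPM in PBS (SD, n = 3 each), 5.51-fold lower (log2 fold change -2.46 ± 0.30, SE; edgeR adjusted p = 0.00251). By the size of its fold it ranked 50 among the 753 genes called lower. Leaving out any 1 library left it called, with log2 fold changes of -2.84 to -2.26.

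Itga1, the alpha subunit that with Itgb1 binds basement membrane and fibrillar collagens (chromosome 13, 114953096 to 115101964, minus strand), was at 90.2, 135 and 95.4 CPM in rmCIRBP and at 115, 118 and 102 CPM in PBS. The groups overlapped, with rmCIRBP 2 above all other libraries. The log2 fold change of -0.07 ± 0.16 (SE) had an edgeR adjusted p of 0.823. It was 0.04 without rmCIRBP 1 and 0.01 without rmCIRBP 3, so no direction is given. Gm49395, on the same strand, shares 685 of its exon bases (3.68%) and had 12 counts in rmCIRBP and 14 in PBS. Of 10 tested genes for collagen ligands, 0 were called by edgeR, DESeq2 or limma voom, and 1 had an unadjusted edgeR p under 0.05. The smallest edgeR adjusted p was 0.144, for Col4a1 (log2 fold change 0.48), followed by 0.196 for Col1a2 (-0.37), 0.221 for Col4a2 (0.38) and 0.269 for Col5a1 (-0.25). The median log2 fold change of the list was -0.11.

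Of the laminin receptor subunits among the 10 genes, Itga7 and Itga3 fell. Itga7, the alpha subunit of the main laminin receptor of muscle (chromosome 10, 128933818 to 128958282, plus strand), was at 4.18, 8.73 and 8.27 CPM in rmCIRBP and at 37.1, 22.0 and 15.8 CPM in PBS. These levels rest on 57 to 121 counts in rmCIRBP and 231 to 447 counts in PBS, and PBS 1 was the highest library. It was 3.52-fold lower in rmCIRBP, -1.82 ± 0.37 (SE) on the log2 scale with an edgeR adjusted p of 0.0206. The call ended without PBS 2 (0.0642) or rmCIRBP 1 (0.0643).

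Itga3, the alpha subunit of a receptor for laminins of epithelial basement membranes (chromosome 11, 95044474 to 95076801, minus strand), was at 13.7, 16.1 and 16.1 CPM in rmCIRBP and at 24.5, 20.2 and 22.7 CPM in PBS. The libraries of each group lay close together, with an SD of 1.37 CPM in rmCIRBP and 2.15 CPM in PBS. This made a log2 fold change of -0.55 ± 0.14 (SE), at an edgeR adjusted p of 0.0407. This call ended when any 1 library was left out, with edgeR adjusted p of 0.0791, 0.0783 and 0.124 without PBS 1, 2 and 3 and 0.143, 0.0572 and 0.0757 without rmCIRBP 1, 2 and 3. Of 9 tested laminin chain genes 2 rose and 2 fell, with a list median of 0.20, where 11.5% of all genes tested were called. Lama2, the alpha chain of muscle and mesenchymal laminins, was at 123 ± 18.5 CPM in rmCIRBP and 214 ± 27.8 CPM in PBS (SD, n = 3 each; log2 fold change -0.79), and Lamb2 had a log2 fold change of -0.74. Lama1 (2.59) and Lamb3 (0.93) rose on the log2 scale, to 10.5 ± 6.02 and 7.49 ± 0.456 CPM in rmCIRBP, against 1.76 ± 0.924 and 3.95 ± 0.999 CPM in PBS (edgeR adjusted p = 0.0143, 0.0276, 0.0269 and 0.0428 in the order named).

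Of the alpha subunits for RGD ligands among the 10 genes, Itgav rose, and neither Itga8 nor Itga5 was called. Itga8, which with Itgb1 binds nephronectin and fibronectin and marks lung mesenchyme and smooth muscle (chromosome 2, 12106632 to 12301922, minus strand), was at 117, 256 and 94.9 CPM in rmCIRBP and at 508, 307 and 369 CPM in PBS. The groups did not overlap, and the highest library of each was the one with the most smooth muscle marker RNA. It averaged 156 ± 87.4 CPM in rmCIRBP and 395 ± 103 CPM in PBS (SD, n = 3 each; log2 fold change -1.34 ± 0.37, SE), and edgeR's adjusted p of 0.0553 missed the threshold. As rmCIRBP 2 was the rmCIRBP library nearest to PBS, leaving it out must widen the difference, so such a fit is no support for a fall. Without rmCIRBP 2 the log2 fold change was -1.90 (edgeR adjusted p = 0.00162, where 9.96% of all genes were called). Without PBS 1 and rmCIRBP 2 together it was -1.67 (0.000627, where 17.5% were called). Other libraries left out gave 0.101 to 0.165, while DESeq2 (0.00213, where it called 16.6% of all genes), limma voom (0.0424, with 1738 genes called), upper quartile scaling (0.0475) and no low-count filter (0.00169) called it. An antisense gene, E030013I19Rik, shares 372 exon bases with Itga8, or 5.05% of its exons, and had 649 counts in rmCIRBP and 1329 in PBS. As the strand setting is not given in the sources used here, reads there cannot be told apart.

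Itga5, the alpha subunit of the classical fibronectin receptor (chromosome 15, 103344286 to 103366763, minus strand), was at 263, 604 and 177 CPM in rmCIRBP and at 240, 165 and 136 CPM in PBS. rmCIRBP 2 held 3.41 times the level of rmCIRBP 3, and rmCIRBP 3 lay below PBS 1, so the groups overlapped. On the log2 scale the difference was 0.95 ± 0.43 (SE) at an edgeR adjusted p of 0.189, and without rmCIRBP 2 it was 0.29 (0.530). With no low-count filter the adjusted p was 0.0398. Fn1, which encodes fibronectin, was at 10476 ± 1630 CPM in rmCIRBP and 7875 ± 331 CPM in PBS (SD, n = 3 each), 0.41 on the log2 scale, and was not called (edgeR adjusted p = 0.179).

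Itgav rose. The gene (chromosome 2, 83724397 to 83806916, plus strand) was at 363, 462 and 443 CPM in rmCIRBP and at 283, 260 and 319 CPM in PBS, so that every rmCIRBP library lay above every PBS library. It averaged 423 ± 52.8 CPM in rmCIRBP and 287 ± 29.4 CPM in PBS (SD, n = 3 each), 1.47-fold higher (log2 fold change 0.56 ± 0.14, SE; edgeR adjusted p = 0.0412). The call lay near the threshold and ended without PBS 1, 2 or 3 (0.0731, 0.149 and 0.0767), without rmCIRBP 1, 2 or 3 (0.0582, 0.0754 and 0.0881) and with upper quartile scaling (0.0594). Its log2 fold change stayed between 0.48 and 0.66 over the 16 alternatives run. Gm13684, on the other strand, shares 634 of its exon bases (5.90%) and had 8 counts in rmCIRBP and 10 in PBS.

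**Figure D2:**
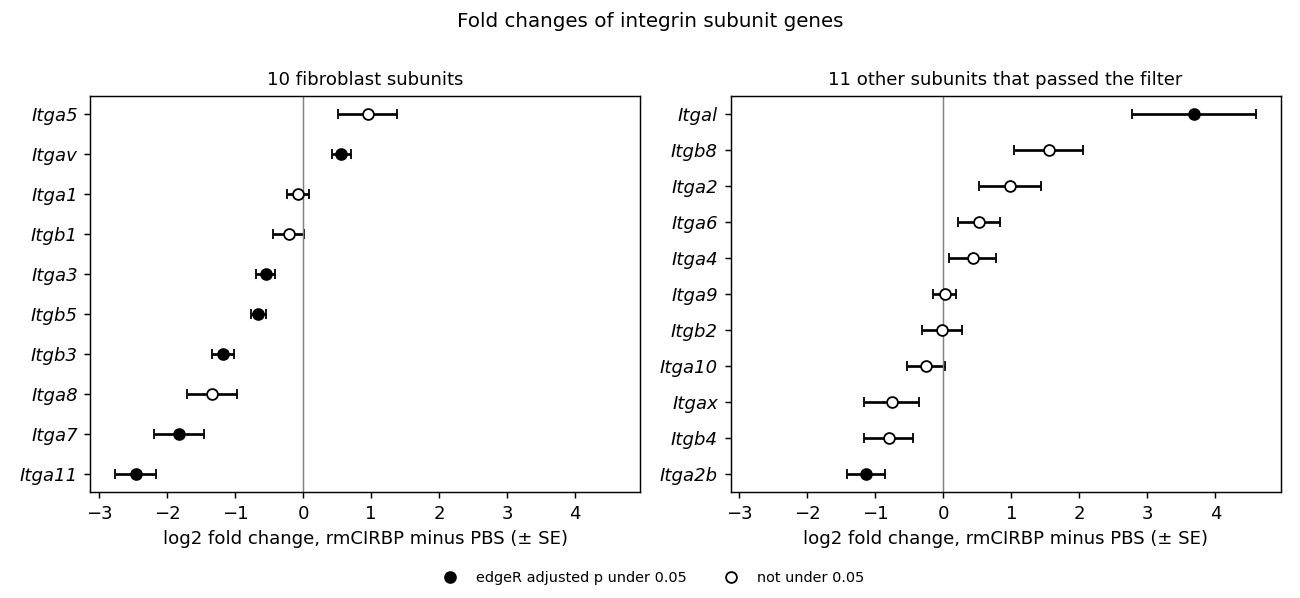
Log2 fold change, rmCIRBP minus PBS, with its SE (horizontal axis) for the 10 fibroblast integrin genes and for the 11 other subunits that passed the filter; filled points have an edgeR adjusted p under 0.05. Values run from -2.46 for Itga11 to 0.95 for Itga5 among the 10, and from -1.14 for Itga2b to 3.68 for Itgal among the others.

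Of the 3 beta subunits among the 10 genes, Itgb5 and Itgb3 fell and Itgb1 was not called. Itgb5, which with Itgav forms a vitronectin receptor (chromosome 16, 33829665 to 33949338, plus strand), was at 400, 404 and 381 CPM in rmCIRBP and at 594, 603 and 669 CPM in PBS. Its libraries were the most alike of the 10 genes, with a coefficient of variation of 3.03% in rmCIRBP and 6.57% in PBS. It was 1.58-fold lower in rmCIRBP, at -0.66 ± 0.11 (SE) on the log2 scale and an edgeR adjusted p of 0.0108. The call ended without rmCIRBP 1 (0.0583).

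Itgb3, the partner of Itgav in another vitronectin receptor and of Itga2b in the platelet fibrinogen receptor (chromosome 11, 104608000 to 104670476, plus strand), was at 5.87, 5.70 and 5.27 CPM in rmCIRBP and at 12.6, 13.8 and 11.9 CPM in PBS. The counts were 72 to 80 in rmCIRBP and 152 to 174 in PBS, so every rmCIRBP library lay well below every PBS library. It was 2.27-fold lower (log2 fold change -1.18 ± 0.16, SE; edgeR adjusted p = 0.00427), a call that held when any 1 library was left out.

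Itgb1, the common partner (chromosome 8, 128685654 to 128733200, plus strand), was at 1313, 2016 and 1290 CPM in rmCIRBP and at 2153, 1422 and 1753 CPM in PBS. The groups overlapped widely. The difference of -0.21 ± 0.23 (SE, log2) had an edgeR adjusted p of 0.596, and leaving out 1 library gave -0.45 (without rmCIRBP 2) to -0.03 (without PBS 1).

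The spread within groups was not even across the genes. In rmCIRBP 2, 8 of the 10 genes were at their highest for the group, and in PBS 1, 5 of the 10 were. Itga5, Itga7, Itga8 and Itgb1 were highest in both. The share of all genes highest in these libraries is not given here, so the counts are not read as particular to the 10. On the log2 scale rmCIRBP 2 lay above its group mean by 0.99 for Itga5, 0.85 for Itga8, 0.62 for Itga11 and 0.42 for Itgb1, and by 1.52 for the summed smooth muscle markers. For Itgb5 and Itgb3 it lay within 0.03 and 0.02 of the mean. Relative to the same mean rmCIRBP 3 lay at -0.78 for Itga5 and -0.57 for Itga8, beside -1.56 for the markers, but at 0.29 for Itga7 and 0.08 for Itga3 and Itgav. The part of the smooth muscle genes in these results was not tested. With rmCIRBP 2 and PBS 1 both left out, log2 fold changes were -2.81 for Itga11, -1.59 for Itga7, -1.20 for Itgb3, -0.70 for Itgb5, -0.52 for Itga3, 0.48 for Itgav and 0.56 for Itga5. All 7 kept their sign. The genes called were then Itga7, Itga8, Itga11, Itgb3 and Itgb5, or 5 of the 10, all lower, where 17.5% of all genes were called. Itga3 (edgeR adjusted p = 0.0625) and Itgav (0.0746) were not.

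**Figure D3:**
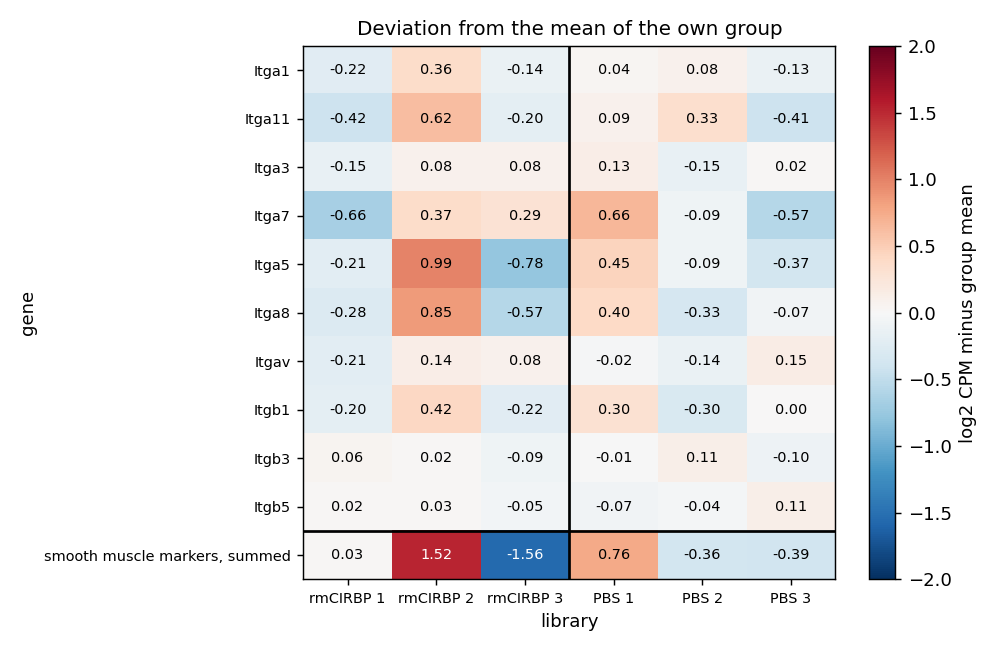
Log2 CPM of each gene in each library minus the mean of its own group (colour and printed value; libraries on the horizontal axis, genes on the vertical), with the sum of 6 smooth muscle markers in the bottom row. rmCIRBP 2 stands 0.99 above its group for Itga5 and 0.85 for Itga8, while Itgb3 and Itgb5 stay within 0.11 of their group means.

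To set genes beside each other, levels were divided by the length of the union of their exons, giving RPKM, the CPM per kilobase of exon. The order of mean RPKM in rmCIRBP was Itgb1 (377 ± 101), Itgb5 (111 ± 3.37), Itga5 (70.6 ± 45.8), Itgav (39.3 ± 4.91), Itga8 (21.1 ± 11.9), Itga1 (5.74 ± 1.30), Itga3 (2.68 ± 0.240), Itga11 (1.71 ± 0.699), Itgb3 (0.952 ± 0.0527) and Itga7 (0.873 ± 0.309; SD, n = 3). In PBS it was Itgb1 (435 ± 89.7), Itgb5 (175 ± 11.5), Itga8 (53.6 ± 14.0), Itga5 (36.6 ± 10.9), Itgav (26.7 ± 2.74), Itga11 (9.43 ± 2.35), Itga1 (6.01 ± 0.457), Itga3 (3.94 ± 0.376), Itga7 (3.08 ± 1.36) and Itgb3 (2.16 ± 0.165; SD, n = 3). Itga8 thus stood above Itga5 and Itgav in mean level in PBS and below both in rmCIRBP, and Itga11 stood above Itga1 and Itga3 in PBS and below both in rmCIRBP. Neighbours whose libraries overlapped were, in rmCIRBP, Itgb5 and Itga5, Itga5 and Itgav, Itgav and Itga8, Itga3 and Itga11, and Itgb3 and Itga7, and in PBS Itga8 and Itga5, Itga5 and Itgav, Itga3 and Itga7, and Itga7 and Itgb3. With the longest transcript as the length, Itga1 (10.2 RPKM) rather than Itga11 (9.73 RPKM) came next after Itgav in PBS. Itga7 then lay above Itga3 in PBS (6.21 and 4.62 RPKM), and in rmCIRBP it lay above Itgb3 (1.76 and 0.971 RPKM) and level with Itga11. The 10 genes held 97.9% to 98.3% of the summed RPKM of all 27 integrin subunit genes in rmCIRBP and 98.1% to 98.8% in PBS.

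The make-up of alpha subunit RNA differed between the groups. Itga8 made up 14.1%, 16.2% and 12.8% of the summed RPKM of the 7 alpha genes in rmCIRBP and 40.9%, 33.7% and 39.9% in PBS, a difference of -23.7 percentage points. Itga5 made up 47.7%, 57.3% and 35.8% in rmCIRBP and 28.8%, 27.1% and 21.9% in PBS, a difference of 21.0 points. Unlike the level of Itga5, its share did not overlap between the groups. Itga8, in the same sum, was lower in every rmCIRBP library than in every PBS library, which raises the shares of the other genes. The share of Itga5 alone therefore does not show a difference in Itga5 itself. Itga11 made up 1.22% ± 0.170 in rmCIRBP and 6.89% ± 2.15 in PBS, and Itga7 0.661% ± 0.309 in rmCIRBP and 2.16% ± 0.583 in PBS (SD, n = 3). For these 4 genes the two-sided exact permutation p was 0.1, the smallest that 3 against 3 allows. The share of Itgav, 30.4% ± 10.5 in rmCIRBP and 19.6% ± 4.02 in PBS, overlapped (exact permutation p = 0.2), as did those of Itga1 (0.7) and Itga3 (0.2). Of the 3 beta genes Itgb1 held 76.5% ± 4.02 in rmCIRBP and 70.6% ± 4.54 in PBS, and Itgb5 23.3% ± 3.98 in rmCIRBP and 29.0% ± 4.48 in PBS (exact permutation p = 0.3 for each). Itgb3 held 0.199% ± 0.0363 in rmCIRBP and 0.360% ± 0.0777 in PBS, without overlap (exact permutation p = 0.1). A share within a library does not depend on the scaling between libraries, but a share falls when another gene's rises and rises when another gene's falls.

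**Figure D4:**
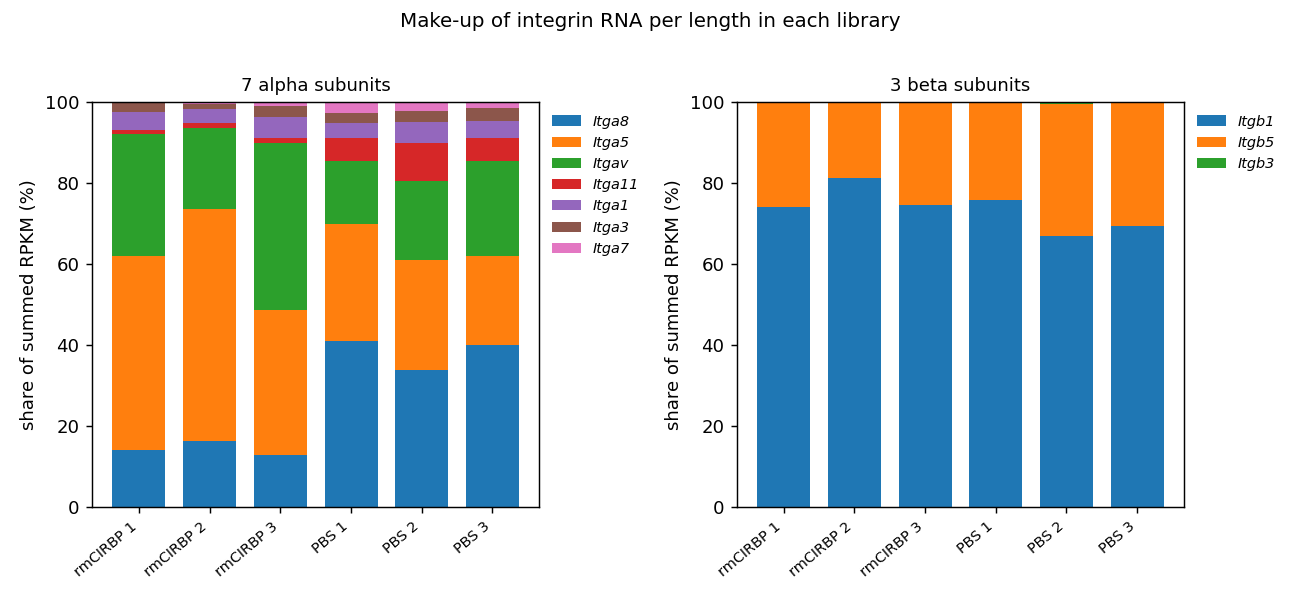
Share of each gene in the summed RPKM of the 7 alpha genes (left) and of the 3 beta genes (right), in percent, stacked for each library. Itga8 takes 12.8% to 16.2% of alpha subunit RNA in the rmCIRBP libraries and 33.7% to 40.9% in the PBS libraries.

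Ratios of an alpha gene to a beta gene it is known to pair with also stand apart from the scaling. Itgav over Itgb5 was 0.300, 0.378 and 0.384 in rmCIRBP and 0.157, 0.143 and 0.158 in PBS, on RPKM. Itgav over Itgb3 was 33.9, 44.5 and 46.2 in rmCIRBP and 12.3, 10.4 and 14.7 in PBS. Both ratios were higher in every rmCIRBP library, by 1.21 and 1.74 on the log2 scale. As Itgav was higher and Itgb5 and Itgb3 lower in every rmCIRBP library than in every PBS library, both ratios had to separate. Their permutation p was thus fixed by the levels and is no further test. Relative to Itgb1, the log2 ratio was higher in rmCIRBP by 1.01 for Itga5 and 0.77 for Itgav, and differed by -2.29 for Itga11, -1.59 for Itga7 and -1.23 for Itga8. In these ratios to Itgb1 the groups did not overlap (two-sided exact permutation p = 0.1 each, the smallest possible). After Benjamini-Hochberg adjustment over the 9 ratios computed, which include Itgav over Itgb5 and over Itgb3, the permutation p was 0.129. The share of other gene pairs whose ratios separate is not given here, so the ratios are a description. For Itga1 (0.13) and Itga3 (-0.34) relative to Itgb1 the groups overlapped (exact permutation p = 0.5 and 0.2). The summed alpha RPKM was 25.7%, 35.2% and 23.7% of the summed beta RPKM in rmCIRBP and 24.2%, 23.8% and 20.2% in PBS. RNA ratios do not give the number of receptor pairs on the cell.

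**Figure D5:**
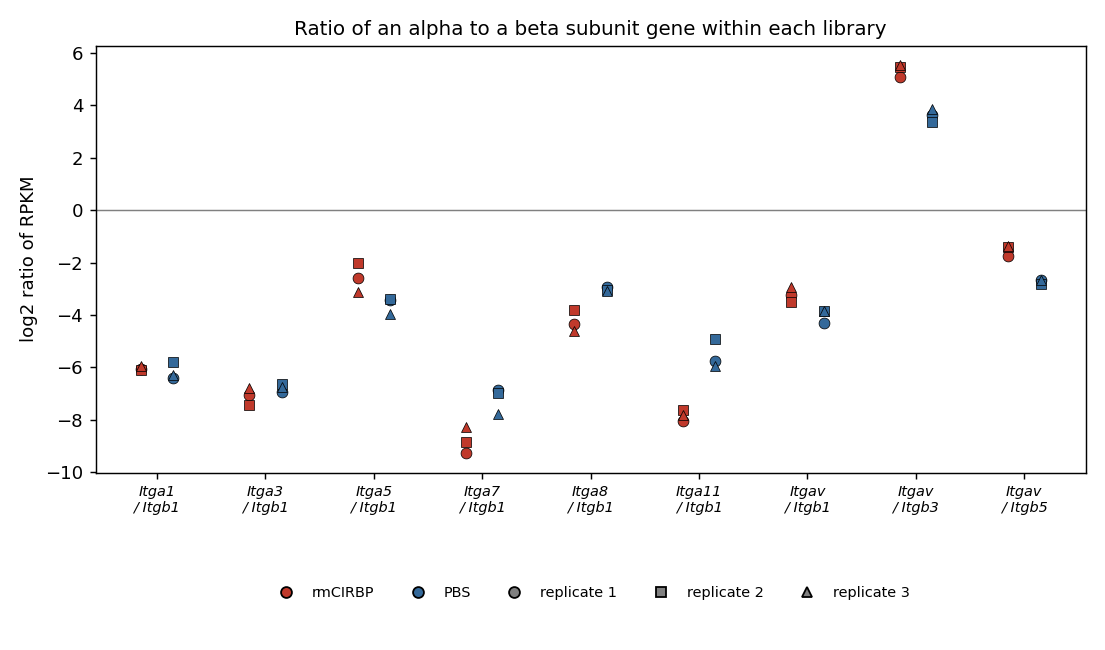
Log2 ratio of RPKM of an alpha to a beta subunit gene (vertical axis) for 9 pairs, with a point for each library. Itgav over Itgb3 and Itgav over Itgb5 lie higher in all 3 rmCIRBP libraries, and Itga7, Itga8 and Itga11 over Itgb1 lie lower in all 3.

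Of the other 17 integrin subunits, 11 passed the filter. Of these, 1 was called lower and 1, which passed only through its rmCIRBP counts, higher, where 11.5% of all genes tested were called. Itga2b, the alpha subunit of the platelet fibrinogen receptor, was at 4.84, 3.18 and 6.51 CPM in rmCIRBP and at 9.13, 10.6 and 12.3 CPM in PBS (log2 fold change -1.14 ± 0.28, SE; edgeR adjusted p = 0.0374). The platelet markers Pf4 and Gp9 were at 0 to 0.366 CPM in rmCIRBP and 0 to 0.498 CPM in PBS, and Ppbp had 0 counts. The Itga2b call ended without PBS 2 (0.113), PBS 3 (0.131), rmCIRBP 1 (0.114) or rmCIRBP 2 (0.0515).

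Itgal, the alpha subunit of a leukocyte adhesion receptor, was at 2.42, 4.69 and 0.951 CPM in rmCIRBP and at 0, 0.0812 and 0.478 CPM in PBS (log2 fold change 3.68 ± 0.91, SE; edgeR adjusted p = 0.0385). Its PBS level rests on 8 counts in all, so the fold is poorly fixed. It passed the filter only through rmCIRBP (33, 65 and 13 counts, against 0, 1 and 7 in PBS), the group where it is high. Its call is therefore a description. Under a filter of at least 1 CPM in 3 libraries it was not tested. The call ended without PBS 1 (0.0658), PBS 2 (0.142), rmCIRBP 1 (0.0923) or rmCIRBP 2 (0.0748), and without PBS 3 the log2 fold change was 5.74. Without rmCIRBP 2 and PBS 1 together it ended too (0.0765). The 7 leukocyte markers summed to 35.2, 35.3 and 22.7 CPM in rmCIRBP and 19.9, 21.7 and 18.0 CPM in PBS, with Cd3e and S100a9 at 0, Adgre1 higher at 8.96 ± 3.29 CPM in rmCIRBP and 1.63 ± 0.221 CPM in PBS (SD, n = 3 each; edgeR adjusted p = 0.00440), and Csf1r and Cd68 not called. Their part in the Itgal result was not tested. Itgb2, the beta partner of Itgal, was at 5.05 ± 1.46 CPM in rmCIRBP and 5.11 ± 1.06 CPM in PBS (SD, n = 3 each; edgeR adjusted p = 0.973).

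The other 8 tested subunits did not pass the test. Itgb8, another partner of Itgav, came nearest with 7.12, 2.74 and 3.00 CPM in rmCIRBP and 1.33, 2.27 and 0.819 CPM in PBS (log2 fold change 1.55 ± 0.51, SE; edgeR adjusted p = 0.0900). Itga2, a collagen receptor subunit, had a log2 fold change of 0.98 and, like Itga5, was highest in rmCIRBP 2, at 28.4 CPM (edgeR adjusted p = 0.205). Itga9 (0.02), Itga6 (0.53), Itga4 (0.43), Itga10 (-0.26), Itgax (-0.76) and Itgb4 (-0.80) had edgeR adjusted p of 0.186 to 0.946. The median over the 11 was 0.02. Of the 6 that did not pass the filter, Itgad and Itgb2l had 0 counts in all libraries and the others at most 30 counts in a group.

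Genes that work with integrins were read from lists drawn up by function, with earlier results of these data known. Their counts are a description, to be read beside the 11.5% of all genes tested that were called (6.74% higher, 4.77% lower). Of 20 tested adhesion adaptors and kinases, 1 rose and 2 fell, with a median log2 fold change of 0.12. Tns1, tensin 1, which ties beta subunit tails to actin, was at 836 ± 58.3 CPM in rmCIRBP and 1823 ± 92.7 CPM in PBS, and Zyx, zyxin of focal adhesions, at 444 ± 57.2 CPM in rmCIRBP and 796 ± 17.0 CPM in PBS (SD, n = 3 each). Tln2, a talin that activates integrins from inside the cell, rose to 89.6 ± 2.84 CPM in rmCIRBP, against 57.5 ± 6.01 CPM in PBS. The edgeR adjusted p was 0.00190, 0.00719 and 0.00870 for these, and 0.0615 for Tns3 (log2 fold change -0.42). Of 17 regulators and membrane partners 5 rose and 1 fell, with a median of -0.05. Sdc4, the fibronectin co-receptor syndecan 4, was at 291 ± 8.08 CPM in rmCIRBP and 74.9 ± 14.6 CPM in PBS (log2 fold change 1.96 ± 0.15, SE; edgeR adjusted p = 0.000295). Cd47, an integrin-associated membrane protein, rose by 0.98 and Ndrg1 by 0.61, and the tetraspanin Cd9 fell by 1.26 on the log2 scale (edgeR adjusted p = 0.00704, 0.0140 and 0.0110). Of 15 tested RGD and related ligands, with a median of 0.21, Tgfb1 rose (log2 fold change 0.86) and Tgfbi fell (-2.75), with edgeR adjusted p of 0.0226 and 0.0363, and Tnc had 0.72 (0.204). Tgfbi was low, at 1.98, 0.794 and 1.68 CPM in rmCIRBP and 2.41, 11.5 and 16.1 CPM in PBS. Its fold thus rests mainly on PBS 2 and PBS 3.

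The gene most like a subunit gene was sought over 12836 protein-coding genes as the smallest root mean square difference of log2 CPM over the 6 libraries, each profile centred on its own mean. This is a description, and likeness says nothing of a shared role. It was Dpp4 for Itga11 (0.214), Ckb for Itga8 (0.151), Mcm10 for Itga5 (0.0920) and Ints6l for Itgb3 (0.101). For genes that varied less it was Col4a5 for Itga3 (0.0599), Rragd for Itgb5 (0.0432), Ggnbp1 for Itgav (0.0731), Cbx1 for Itga1 (0.0542) and Gemin2 for Itgb1 (0.0564). Mcm10, like Itga5, was highest in rmCIRBP 2, at 13.6 CPM beside 6.31 and 3.88 CPM in the other rmCIRBP libraries. Among the 10 genes themselves, Itga3 and Itgb5 were the closest pair (0.140), and Itga11 and Itga7 were each other's nearest (0.522). Dpp4 was at 0.440, 0.866 and 0.512 CPM in rmCIRBP, few counts.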

How the data were processed

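The 6 libraries (3 rmCIRBP, 3 PBS) are polyA RNA-seq. The authors deposited raw counts, as a single table with 1 column a library. The column names give group and number, which tied each column to its sample, and 0 columns were unmapped. The submitters' processing notes name featureCounts, GRCm38 (mm10), DESeq2 and R 4.1.2. Aligner, annotation release, strand setting and the handling of multi-mapping reads: not given in the sources used here. 0 lines named no gene. Depth and its floor stand with the results.

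Counts were filtered with filterByExpr by group, leaving 15801 genes, scaled by trimmed mean of M values and tested with edgeR 4.0.16 in R 4.3.3 (quasi-likelihood F test, two-sided, no covariate, Benjamini-Hochberg over all genes tested). Each standard error is the log2 fold change divided by the square root of F. Exon lengths come from GENCODE M21 (GRCm38), in which all 10 genes have the coordinates of the deposited table. Shares and ratios were compared by exact permutation over libraries. Log2 CPM used a prior count of 2. No pair of libraries was near-identical (smallest chi-square per degree of freedom 14.2). On simulated counts for rmCIRBP against PBS with 200 of 15801 genes changed, edgeR found 51% of the genes given a 2-fold change and 85% of those given 4-fold. Of its 147 calls 7.48% were false, beside 18.4% of 190 calls by DESeq2 and 7.59% of 145 by limma voom. The simulated counts were drawn independently for each gene, and 1818 genes were called in the data. These rates therefore need not hold for the data.

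The members and gene lists were chosen with earlier results of these data known. All 10 members and every other integrin subunit past the filter are named, with up to 4 genes of smallest p from each other list, the up to 3 most abundant genes of each cell type list, and the nearest gene to each member, of which 1 is not reported here. Epithelial, platelet and skeletal muscle lists, near 0, are given mainly as sums, and Dcn, Thy1, Lum and Cdh5 were named after their values were seen. Alternatives were other scalings, filters, DESeq2 1.42.0, limma 3.58.1 voom, protein-coding genes alone, a replicate block, a threshold of 0.01, another gene length and leaving out libraries.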

Additional observations from a re-analysis of the deposited data

How the results depend on the processing

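Itga11 and Itgb3 were called lower in all 16 alternatives run, with log2 fold changes of -2.84 to -2.26 and -1.25 to -1.11, and Itgb5 in 15 (-0.72 to -0.60). Itga7 was called in 13 (-2.06 to -1.41), and Itga3 and Itgav in 7 each. Itga3 was also lost with no low-count filter (0.0514). Itga1 changed sign when rmCIRBP 1 or 3 was left out, within a range of -0.27 to 0.04. The number of the 10 genes called was 2 to 5 with 1 library left out, 2 at a threshold of 0.01 and 6 to 7 under other scalings, filters and tools. The number of all genes called was 723 to 2144 with 1 library left out, 2802 without PBS 1 and rmCIRBP 2 together and 608 at 0.01. With no low-count filter it was 2607 and with DESeq2 2618.

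With the replicate number as a block, 3 of the 10 genes were called and 1258 of all genes (7.96%), and Itga3 (0.103), Itga7 (0.0562) and Itgav (0.0797) were lost, as was Itgal (0.0851). The numbers are not shown to pair the libraries: deviations from the group means of same-numbered libraries had r of -0.107, -0.169 and 0.246 across genes, and not every library was closest to its own number. The cause of the other changes was not tested. With the longest transcript as length the share of Itga7 differed by -2.34 percentage points, against -1.49. The other shares, and all ratios, moved by less than the spread between replicates when 1 library was left out. The lowest counts among the 10 genes, 57 to 121 for Itga7 and 72 to 80 for Itgb3 in rmCIRBP, limit the precision of those levels.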
